A study of Mus musculus with 15 samples.

Results

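Mmp12, Adam8 and 7 further genes of extracellular proteolysis were followed in microglia (macrophages that live in the brain) after an ischemic stroke in mice. The 9 genes were Mmp12, Mmp14, Mmp2, Adam8, Adam10, Adam17, Adamts1, Timp2 and Timp3, picked by symbol out of 24421 genes, and all 9 were listed in each of the 3 deposited count tables. They were named with earlier results of these data known. Among those results were the day 1 ratios of Mmp12 and Adam8, which are therefore given as a description. For the other members, the values that led to their choice are not recorded.

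Male mice aged 8 to 24 weeks had a middle cerebral artery blocked for 60 minutes by a filament, a model of transient stroke, and cells of intermediate CD45 and CD11b staining were sorted from the forebrain and sequenced in bulk. The wild-type (C57BL/6J) course had 1 library each from sham-operated mice, which had the operation without the blockade, and from days 1, 6, 14 and 28. Igf1-Egfp transgenic mice, in which EGFP marks cells with Igf1 reporter activity, gave an EGFP-positive and an EGFP-negative library each on days 6 and 14. Cx3cr1-CreER;Yy1flox/flox mice, in which a Cre driven from the Cx3cr1 locus of macrophages removes the transcription factor gene Yy1, gave 3 day 6 libraries (called Yy1-deleted here), and Yy1flox/flox mice without Cre gave 3 (floxed controls). The labels do not give the number of animals behind a library, the floxed part of Yy1 or how the CreER was switched on.

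Matrix metalloproteinases (MMPs) are zinc enzymes that cut collagens, elastin and other proteins outside the cell. Mmp12 encodes macrophage metalloelastase, a secreted enzyme made mostly by macrophages, and Mmp14 encodes a membrane-anchored MMP that switches on the secreted gelatinase encoded by Mmp2. ADAMs are membrane-bound relatives that shed the outer parts of other membrane proteins, while tissue inhibitors of metalloproteinases (TIMPs) block many enzymes of both families.

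Levels are counts per M (1e6) total counts, scaled by the trimmed mean of M-values (CPM). All 11 microglial markers were counted in all 15 libraries. In the wild-type course their summed level was 28697 CPM in sham and between 6636 and 14324 CPM on the days after stroke. Libraries held between 10.5 and 52.6 M counts. The day 28 library had a count for 9886 genes, the fewest of all, and the day 1 library for 17321, the most. The day 14 reporter pair was sequenced on another instrument and scaled apart from the rest. Ratios between single libraries carry no replicate check, and their 95% intervals (exact Clopper-Pearson) cover counting error only. In bulk samples, fewer cells of a type and less RNA per cell cannot be told apart.

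The promoters of the members whose levels differed most are shown because Mmp12 and Adam8 had the day 1 peak in common and Timp3 was the member called between Yy1 genotypes. The sequences are from RefSeq on GRCm38.p6 and run, in the direction of transcription, from 250 bases before to 50 after the annotated start. RefSeq sequences were matched for 8 of the 9 members, all but Mmp2. Capitals mark matches to 1 of 4 searched motifs.
Mmp12 first start, chr9:7344147-7344446, plus strand: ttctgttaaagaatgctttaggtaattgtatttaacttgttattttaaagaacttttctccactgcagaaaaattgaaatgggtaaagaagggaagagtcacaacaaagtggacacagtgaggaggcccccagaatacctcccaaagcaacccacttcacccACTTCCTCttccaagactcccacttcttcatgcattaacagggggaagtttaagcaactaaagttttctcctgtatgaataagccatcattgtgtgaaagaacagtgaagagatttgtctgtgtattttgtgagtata
Mmp12 second start, chr9:7347124-7347423, plus strand: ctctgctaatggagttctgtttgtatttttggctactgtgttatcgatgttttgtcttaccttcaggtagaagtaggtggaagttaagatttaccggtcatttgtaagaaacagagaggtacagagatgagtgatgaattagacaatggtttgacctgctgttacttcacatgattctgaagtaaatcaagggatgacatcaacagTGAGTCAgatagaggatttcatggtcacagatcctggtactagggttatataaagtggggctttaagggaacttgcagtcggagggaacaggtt
Adam8, chr7:139992513-139992812, minus strand: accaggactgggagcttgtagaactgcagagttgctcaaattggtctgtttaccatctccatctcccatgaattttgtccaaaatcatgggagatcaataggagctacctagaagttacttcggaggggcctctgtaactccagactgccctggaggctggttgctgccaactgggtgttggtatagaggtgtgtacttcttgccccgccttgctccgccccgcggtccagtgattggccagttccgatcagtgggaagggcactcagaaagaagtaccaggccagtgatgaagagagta
Timp3, chr10:86300162-86300461, plus strand: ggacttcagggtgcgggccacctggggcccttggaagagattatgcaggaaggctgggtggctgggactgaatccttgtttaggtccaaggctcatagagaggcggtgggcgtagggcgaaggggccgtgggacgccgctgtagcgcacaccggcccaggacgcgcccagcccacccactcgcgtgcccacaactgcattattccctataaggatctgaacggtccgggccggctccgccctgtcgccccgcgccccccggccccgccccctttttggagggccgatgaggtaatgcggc
The window of the first Mmp12 start held the PU.1 motif GAGGAAGT in reverse orientation 88 bases before the start, a motif present in 3.20% of 32851 mouse promoter windows of 300 bases searched on both strands. The window of the second Mmp12 start held the AP-1 motif TGANTCA 44 bases before the start, a motif present in 7.81% of windows. The Adam8 and Timp3 windows held none of these 2 motifs, the YY1 motif AANATGGC (6.05% of windows) or the NF-kappaB motif (4.51%). Among the other members, only the Adam17 window held a match, to the YY1 motif, 103 bases before its start (AAGATGGC). The motifs do not overlap each other in these windows, and a match describes letters only.

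In wild-type microglia, 2 protease genes, Mmp12 and Adam8, stood far above sham on day 1 and far below that peak from day 6 on, whereas the sheddase genes Adam10 and Adam17 stayed within a factor of 1.96 over the whole course. Timp3, which encodes an inhibitor held in the matrix, was highest on day 14 and close to absent on day 28. Adamts1 was highest on days 1 and 14. Mmp14, Mmp2 and Timp2 varied by a factor of 2.35 to 3.61 between their lowest and highest libraries.

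Mmp12 (chr9:7344381-7369499, plus strand) had 1.59 CPM in sham, 651 CPM on day 1, 14.1 CPM on day 6, 0.109 CPM on day 14 and 0.834 CPM on day 28. It was thus high on day 1 alone, with an intermediate level on day 6, and the last 2 libraries rested on 2 and 19 counts. The day 1 level was 409 times the sham level (95% interval 330 to 512), the third highest log2 ratio, 7.97, of 7203 genes with at least 20 CPM in 1 of both libraries. Day 6 against day 1 gave -5.44, the lowest but 1 of 7237 genes so compared. Exons of Mmp12 share up to 157 bases with Mmp1b on the other strand, which had at most 0.706 CPM in the wild-type libraries.

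Adam8 (chr7:139978932-139992562, minus strand) encodes a membrane metalloproteinase of leukocytes. Its level was 2.04 CPM in sham, 813 CPM on day 1, 24.9 CPM on day 6, 2.83 CPM on day 14 and 28.5 CPM on day 28. Day 1 was again far above the other libraries, but unlike Mmp12 the gene had a second, smaller high on day 28. The day 1 level was 398 times the sham level (95% interval 330 to 485), the second highest log2 ratio, 8.06, of the same 7203 genes. The log2 ratio to sham was 3.09 on day 6, 0.33 on day 14 and 3.28 on day 28.

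**Figure D1:**
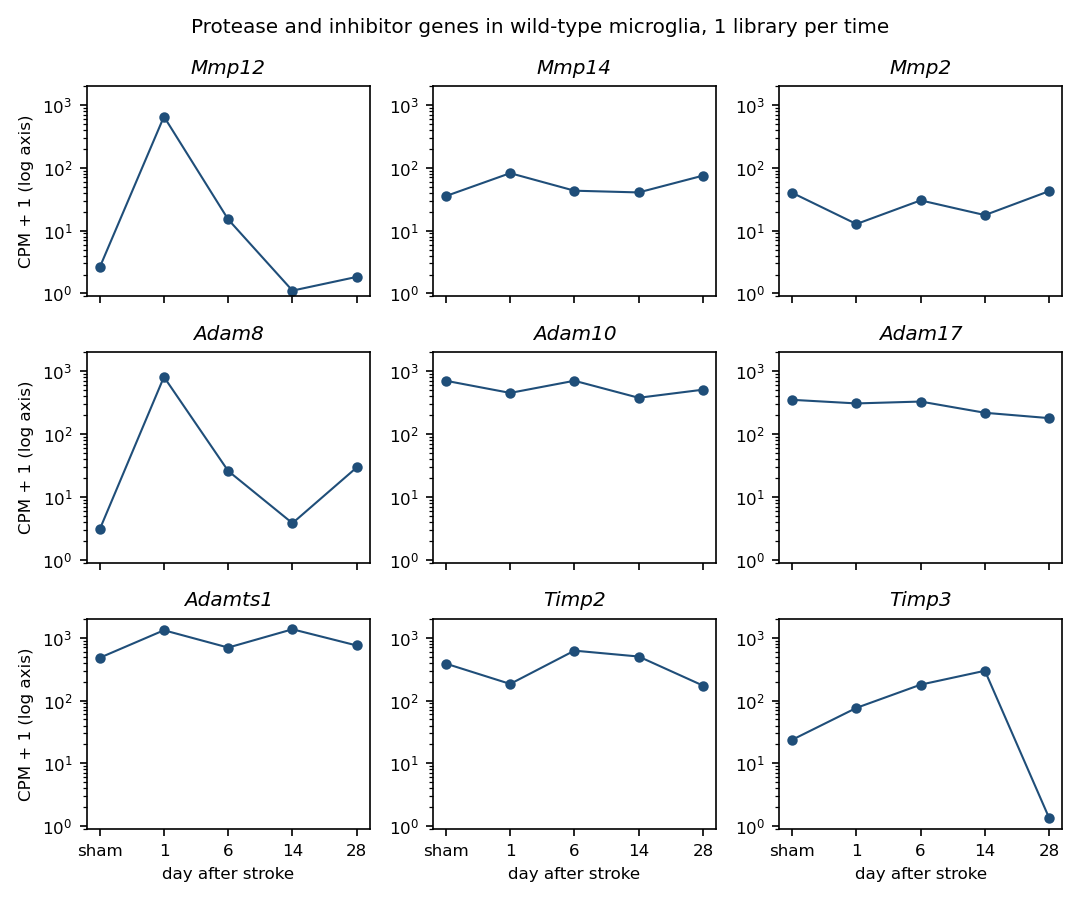
Level of each of the 9 genes in wild-type microglia, as CPM + 1 on a log axis, against the time after stroke, with 1 library per time point and evenly spaced times. Mmp12 reached 651 CPM and Adam8 813 CPM on day 1, Timp3 reached 297 CPM on day 14 and had 0.351 CPM on day 28, and Adam10 and Adam17 gave nearly flat lines.

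Mmp14 (chr14:54431612-54445364) had 34.5 CPM in sham, 81.1 CPM on day 1, 42.2 CPM on day 6, 39.5 CPM on day 14 and 73.9 CPM on day 28. Mmp2 (chr8:92827291-92853420), whose product the Mmp14 product activates, had 39.0 CPM in sham and 11.7, 29.3, 16.6 and 41.5 CPM on days 1, 6, 14 and 28. Mmp14 was thus highest where Mmp2 was lowest on day 1, with log2 ratios to sham of 1.21 and -1.65, but both were high on day 28.

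Adam10 (chr9:70678997-70780229) encodes the main alpha-secretase, which cuts APP and Notch, and Adam17 (chr12:21323509-21373632) the enzyme that releases TNF from the cell surface. Adam10 had 706 CPM in sham, 452 CPM on day 1, 706 CPM on day 6, 378 CPM on day 14 and 509 CPM on day 28. Adam17 had 351 CPM in sham and 307, 329, 218 and 179 CPM on days 1, 6, 14 and 28. Both were at their sham level on day 6, with log2 ratios of 0.00 and -0.09, and below it on day 14, with -0.90 and -0.68. Exons of Adam17 share up to 311 bases with Iah1 on the other strand, which had at most 9.19 CPM in these libraries.

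Adamts1 (chr16:85793827-85803113) encodes a secreted enzyme that cuts matrix proteoglycans such as versican and aggrecan. It had 477 CPM in sham, 1312 CPM on day 1, 695 CPM on day 6, 1359.5 CPM on day 14 and 750.4 CPM on day 28. All 4 libraries after stroke were above sham, with log2 ratios of 0.54 to 1.51, none of which reached the size of 2 used to call a gene.

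Timp2 (chr11:118301069-118355740), an inhibitor that also helps the Mmp14 product to activate the Mmp2 product, had 385 CPM in sham, 183 CPM on day 1, 621 CPM on day 6, 500.2 CPM on day 14 and 172 CPM on day 28. It was above sham on days 6 and 14 and below sham on days 1 and 28. Timp3 (chr10:86300372-86349506), whose product binds the matrix and inhibits the Adam17 product and aggrecan-cutting ADAMTS enzymes, had 22.7 CPM in sham, 75.3 CPM on day 1, 178 CPM on day 6, 297 CPM on day 14 and 0.351 CPM, or 8 counts, on day 28. Each library up to day 14 was above the one before it. The day 28 library then stood alone at 0.0155 of the sham level (95% interval 0.00666 to 0.0305), a log2 ratio of -4.13.

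A gene was called higher or lower between 2 wild-type libraries when its log2 ratio of CPM + 1 was at least 2 in size and at least 1 of the 2 libraries held 20 CPM. On day 1 against sham, Mmp12 and Adam8 were higher and no member was lower, of 9 considered, while 5.59% of all genes considered were called higher and 2% lower. On day 6 against sham, Adam8 and Timp3 were higher and none lower, of 8 considered, against 6.25% higher and 0.0846% lower among all genes. On day 14 Timp3 alone was higher, of 7 considered, against 12.9% higher and 6.82% lower. On day 28 Adam8 was higher and Timp3 lower, of 8 considered, against 11.1% higher and 15.2% lower. Both day 28 calls, and that of Adam8 on day 6, end at a minimum of 50 CPM, since the higher level was 28.5 CPM for Adam8 on day 28, 22.7 CPM for Timp3 in sham and 24.9 CPM for Adam8 on day 6. The median log2 ratio of the considered members was 1.21, 0.41, 0.19 and -0.19 on days 1, 6, 14 and 28, against 0.00, -0.09, -0.03 and 0.15 over all genes. The day 1 calls and median include Mmp12 and Adam8, whose day 1 ratios were known beforehand, so they are a description only. Day 1 log2 ratios of the other members ran from -1.65 for Mmp2 to 1.69 for Timp3. Under 20 CPM in both libraries, and so not considered, were Mmp12 on days 6, 14 and 28 and Adam8 on day 14. These comparisons share the sham library.

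Between neighbouring times, Mmp12 and Adam8 were called lower on day 6 than on day 1, of 9 considered, where 2.25% of all genes were higher and 1.6% lower. Those calls use the same day 1 levels and are likewise a description. Adam8 was called lower on day 14 than on day 6, with a log2 ratio of -2.76, where 4.46% of genes were higher and 4.73% lower. That call ended at a minimum of 50 CPM and with a pseudocount of 5 CPM. On day 28 against day 14, Adam8 was higher at 2.95 and Timp3 lower at -7.78, where 14.6% of genes were higher and 22.6% lower, and the call of Adam8 again ended at a minimum of 50 CPM.

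Per kilobase of exon (GENCODE M21, all exons of a gene merged), the order of the members changed with time. In sham the highest level per kilobase was that of Adam10 at 144 CPM per kb, followed by Timp2 at 98.9 and Adamts1 at 90.0, and the lowest were Adam8 at 0.44 and Mmp12 at 0.22. On day 1 the order was led by Adamts1 at 247 CPM per kb and Adam8 at 175, with Adam10 at 92.0 and Mmp12 at 89.9 almost level. On day 6 Timp2 led at 159 CPM per kb, and on day 14 Adamts1 again at 256.

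Markers of other cell types differed between the same libraries. Of 10 monocyte and macrophage markers, Fn1, the fibronectin gene, had 45.2 CPM in sham and 1142, 1361, 2095 and 757 CPM on days 1, 6, 14 and 28. The other 9 summed to 20.9 CPM in sham and 488, 114, 66.9 and 1729.6 CPM on those days. Their day 14 sum was above sham but the lowest after stroke, whereas Fn1 was highest on day 14. Of this list, 2 genes were considered on day 14 against sham and both were higher, Fn1 and Itga4. Itga4 had 41.5 CPM on day 14, against 4.69 CPM in sham. Arg1, F10 and S100a4 were at 0 on day 14, from at most 1.16 CPM in sham. Of 9 neutrophil markers, Csf3r, which made up most of the sum in sham, had 654 CPM in sham and 189.7, 462, 399 and 616 CPM on days 1, 6, 14 and 28. The other 8 summed to 48.9 CPM in sham and 2189.5, 387, 11.1 and 2383 CPM on those days, highest on days 1 and 28. Genes induced by tissue dissociation summed to 10225 CPM in sham and 8162, 11132, 16331 and 23707 CPM on those days. The part of these cells or genes in the day 1 levels of Mmp12 and Adam8 was not tested.

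The genes whose log2 ratios to sham were most like those of Mmp12, over the other 6 libraries of the same table and 9363 genes, were Cd300ld, Kif1a, Gdf15, Rab7b and Galnt6, with root mean square differences of 1.65 to 1.96. For Adam8 they were Msr1, Lilr4b, Cybb, Lilrb4a and Cd44. Msr1, the class A scavenger receptor, differed from Adam8 by 0.91 and the others by 1.30 to 1.55. Msr1 had 2.17 CPM in sham, 755 CPM on day 1, 54.3 CPM on day 6, 0.381 CPM on day 14 and 47.7 CPM on day 28. Lilr4b and Lilrb4a are near-identical copies, so the split of reads between them is uncertain.

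Other proteolysis genes from fixed lists were called by the same rule, by which 5.59% of all genes were higher and 2% lower on day 1 against sham. Of 18 other MMP genes, 3 were considered on day 1 against sham and all 3 were higher. They were Mmp9, a gelatinase of neutrophils, at 31.3 CPM on day 1 against 0.562 CPM in sham, Mmp8, the neutrophil collagenase, at 42.3 CPM on day 1 against 1.35 CPM in sham, and Mmp19 at 24.3 CPM on day 1 against 0.806 CPM in sham. All 3 were under 20 CPM in sham and on day 6, so they were considered through day 1 alone, which favours a call. They were also lower on day 6 than on day 1, where 1.6% of all genes were lower. On day 28 against sham, 3 of 3 considered were higher, namely Mmp7, Mmp24 and Mmp25, at 25.9 to 47.2 CPM on day 28. In that comparison 11.1% of all genes were higher. These 3 genes were likewise under 20 CPM in sham and considered through day 28 alone, which again favours a call.

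Of 18 genes for substrates of ADAM10 and ADAM17, 14 were considered on day 1 and 2 were higher, the adhesion receptor gene Cd44 at 347 CPM on day 1 against 2.55 CPM in sham and the cytokine gene Tnf at 252 CPM on day 1 against 29.7 CPM in sham. Among genes of plasminogen activation on day 1, the urokinase receptor gene Plaur was higher with a log2 ratio of 3.21, and Serpine2, which encodes an inhibitor of serine proteases, was lower at -2.05. Of 12 cathepsin and cystatin genes, 10 were considered and only the cystatin gene Cst7 was higher, at 21.1 CPM on day 1 against 3.77 CPM in sham. Among 18 other ADAMTS genes, 2 were considered on day 1, of which Adamts9 was higher and Adamts16 lower, and among 9 other ADAM genes none of 2 considered was called.

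On day 6, EGFP-positive cells had more Mmp12, Mmp14 and Timp2 and less Adamts1 than EGFP-negative cells, and on day 14 they had more Timp3, Adam8, Mmp14 and Adam17 and less Mmp2 and Timp2. Between reporter states a log2 ratio of 1 in size was used, again with 20 CPM in 1 of both libraries. Igf1 itself had 813 CPM in EGFP-positive cells, against 49.5 CPM in EGFP-negative cells on day 6. The day 14 level of Igf1 was 33.5 CPM in EGFP-positive cells, against 11.1 CPM in EGFP-negative cells. Of 8 members considered on day 6, 3 were higher and 1 lower, against 7.53% of all genes higher and 11.9% lower. Of 8 considered on day 14, 4 were higher and 2 lower, against 11.2% higher and 10.9% lower. The day 14 calls of Timp3 and Adam8, at 25.5 and 26.5 CPM in EGFP-positive cells, end at a minimum of 50 CPM. The median log2 ratio of the considered members was 0.53 on day 6 and 0.73 on day 14, against -0.04 and 0.03 over all genes.

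Mmp12 had 57.2 CPM in EGFP-positive cells, against 11.6 CPM in EGFP-negative cells on day 6, a log2 ratio of 2.20. On day 14 it had 6.29 CPM, or 140 counts, in EGFP-positive cells and 0 counts in EGFP-negative cells, under the 20 CPM needed for a call. Mmp14 had 208 CPM in EGFP-positive cells, against 66.3 CPM in EGFP-negative cells on day 6. Its day 14 level was 63.0 CPM in EGFP-positive cells, against 21.2 CPM in EGFP-negative cells. The EGFP-positive level of Mmp14 was thus about 3 times the EGFP-negative level on both days, at 3.14 (95% interval 2.99 to 3.29) and 2.97 (2.69 to 3.29).

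Mmp2 went the other way on both days, with 6.26 CPM in EGFP-positive cells, against 16.4 CPM in EGFP-negative cells on day 6, too low for a call. On day 14 it had 23.2 CPM in EGFP-positive cells, against 81.3 CPM in EGFP-negative cells. Adam8 had 217 CPM in EGFP-positive cells, against 131 CPM in EGFP-negative cells on day 6. On day 14 it had 26.5 CPM in EGFP-positive cells, against 1.18 CPM, or 30 counts, in EGFP-negative cells. Its log2 ratio was 0.73 on day 6, not called, and 3.66 on day 14. Adam17 gave 0.33 and 1.18, called on day 14 only, from 411 CPM in EGFP-positive cells, against 181 CPM in EGFP-negative cells. Whether these ratios differ between the days was not tested, with 1 library per state and day.

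Of the 9 members, 4 had positive ratios (more in EGFP-positive cells) on days 6 and 14 alike, 1 had negative ratios on both, and 4 had opposite signs. Timp2 had 839 CPM in EGFP-positive cells, against 279.8 CPM in EGFP-negative cells on day 6, but on day 14 it had 42.9 CPM in EGFP-positive cells, against 127 CPM in EGFP-negative cells. Adamts1 had 219 CPM in EGFP-positive cells, against 578 CPM in EGFP-negative cells on day 6. Its day 14 level was 721 CPM in EGFP-positive cells, against 596 CPM in EGFP-negative cells. The state with the higher level of Timp2 and of Adamts1 was thus not the same on both days. On day 6 Timp3 had 30.7 CPM in EGFP-positive cells, against 36.8 CPM in EGFP-negative cells. By day 14 the levels were 25.5 CPM, or 568 counts, in EGFP-positive cells, against 0 counts in EGFP-negative cells. Adam10 stayed within 0.31 of no change on the log2 scale on both days.

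**Figure D2:**
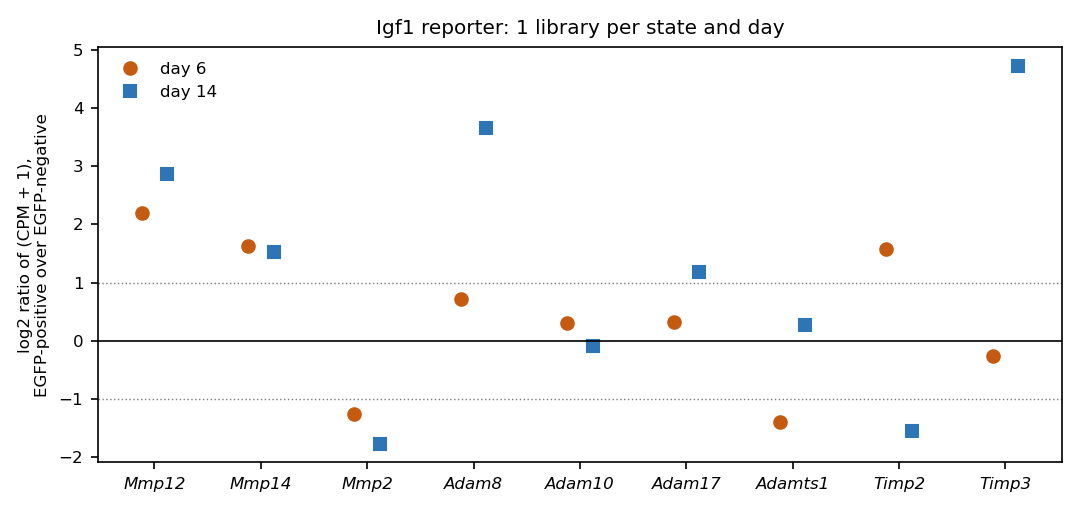
Log2 ratio of CPM + 1 in EGFP-positive over EGFP-negative microglia for the 9 genes, on day 6 (circles) and day 14 (squares), each point from 1 library per state, with dotted lines at the size of 1 used for a call. Mmp12 and Mmp14 lie above 1 and Mmp2 below -1 on both days, while Timp2 lies at 1.58 on day 6 and -1.54 on day 14 and Timp3 at -0.25 on day 6 and 4.73 on day 14.

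The reporter states also differed in markers of other cells. On day 6 neutrophil markers summed to 376 CPM in EGFP-positive cells, against 11696 CPM in EGFP-negative cells, and monocyte and macrophage markers to 1523 CPM in EGFP-positive cells, against 5235 CPM in EGFP-negative cells. On day 14 these sums went the other way, with neutrophil markers at 2312 CPM in EGFP-positive cells, against 1241 CPM in EGFP-negative cells. Monocyte and macrophage markers then summed to 545 CPM in EGFP-positive cells, against 94.1 CPM in EGFP-negative cells. The day 6 sum of this list hides 1 marker that went the other way. Of 10 considered on day 6, 8 were lower in EGFP-positive cells, where 11.9% of all genes were. The 1 higher marker was Arg1, at 114 CPM in EGFP-positive cells against 8.86 CPM in EGFP-negative cells, where 7.53% of all genes were higher. Without Csf3r, the neutrophil sum on day 14 was 1089.8 CPM in EGFP-positive cells, against 0.157 CPM in EGFP-negative cells, where 7 of the 9 markers were at 0. Border-associated macrophage markers summed to 2945 CPM in EGFP-positive cells, against 819 CPM in EGFP-negative cells on day 6. Most of the EGFP-positive sum was Stab1, at 2392 CPM against 364 CPM in EGFP-negative cells, and Stab1 had 822 CPM in wild-type sham. Of 5 of these markers considered, Stab1, Pf4 and Folr2 were higher. F13a1 had 416 CPM in EGFP-positive cells, against 392 CPM in EGFP-negative cells, and Mrc1 had 60.2 CPM against 49.4 CPM. Of the other MMP genes, 3 were considered on day 6 and all 3 were lower in EGFP-positive cells, where 11.9% of all genes were lower. Mmp9 had 0.155 CPM in EGFP-positive cells, against 150.2 CPM in EGFP-negative cells. Mmp8 and Mmp25 had log2 ratios of -2.51 and -3.39. Mmp9 and Mmp25 reached 20 CPM in EGFP-negative cells alone. Adam9, the gene of another ADAM sheddase, was higher in EGFP-positive cells, at a log2 ratio of 1.28 on day 6 and of 1.65 on day 14. The lysosomal protease genes Ctsb and Ctsd were higher on day 6, at 2.14 and 1.71. On day 6 genes induced by tissue dissociation summed to 3626 CPM in EGFP-positive cells, against 10581 CPM in EGFP-negative cells. Of these 13 genes, 12 were lower in EGFP-positive cells and 0 higher. By day 14 the sums were 18822 CPM in EGFP-positive cells and 23313 CPM in EGFP-negative cells, with 3 lower and 1 higher. The part of the other cells or of dissociation in the members' ratios was not tested.

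In the Yy1 comparison, Timp3 was lower in Yy1-deleted microglia and was the only member of the 9 that passed the test. Its mean was 3.91 CPM in Yy1-deleted cells and 44.3 CPM in floxed controls. Mmp12 was below, and Mmp2 above, the control libraries in all 3 Yy1-deleted libraries, but neither passed the test. Yy1 itself had 33.3 ± 4.97 CPM in Yy1-deleted and 61.6 ± 12.9 CPM in floxed control libraries (SD, n = 3 each), without overlap. Its log2 fold change of -0.88 (SE 0.28) had an adjusted p of 0.128 in edgeR's quasi-likelihood test. This count covers the whole gene, so reads from parts of Yy1 that are not floxed are included.

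Timp3 had 1.67, 9.08 and 0.984 CPM in the 3 Yy1-deleted libraries, against 46.5, 40.5 and 45.8 CPM in the 3 floxed control libraries. All 3 Yy1-deleted values were below all control values, and the controls were close together. The log2 fold change was -3.48 (SE 0.65), with an adjusted p of 0.00613 over 12387 genes in edgeR's quasi-likelihood test. Without the first floxed control library the fold change was -3.44 and the adjusted p in edgeR was 0.0869. Over all genes tested, 1.55% were called higher and 1.05% lower, against 0 and 1 of the 9 members. In numbers, 192 genes were higher and 130 lower, but 127 higher and 193 lower when libraries were scaled by total count.

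Timp3 exons share up to 1733 bases with Syn3, a synapsin gene on the other strand, and the use of strand in the counting is not given in the sources used here. Syn3 had 0.687, 0.562 and 7.57 CPM in Yy1-deleted and 7.11, 18.1 and 3.62 CPM in floxed control libraries, so these groups overlapped. In the wild-type course Syn3 had 43.3 CPM on day 28, where Timp3 had 0.351 CPM.

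Mmp12 had 7.16, 0.803 and 0 CPM in Yy1-deleted libraries, against 11.3, 9.33 and 14.5 CPM in floxed controls. The groups did not overlap, but the Yy1-deleted libraries were spread widely, and the log2 fold change of -2.14 (SE 1.20) had an adjusted p of 0.479 in edgeR. It was -4.79 without the first Yy1-deleted library and -1.56 without the third. Adam8 had 12.5, 1.37 and 30.8 CPM in Yy1-deleted libraries, against 39.8, 27.1 and 34.7 CPM in floxed controls. These groups overlapped, with a log2 fold change of -1.19 (SE 0.67) and an adjusted p of 0.486 in edgeR. It was -2.30 without the third Yy1-deleted library and -0.65 without the second.

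Mmp2 had 41.3, 41.8 and 64.0 CPM in Yy1-deleted libraries, against 29.7, 21.4 and 27.2 CPM in floxed controls. All Yy1-deleted values were higher, and the log2 fold change of 0.91 (SE 0.32) had an adjusted p of 0.177 in edgeR. Mmp14 had 11.0, 36.3 and 36.9 CPM in Yy1-deleted libraries, against 47.4, 36.8 and 52.4 CPM in floxed controls. The groups overlapped in 1 Yy1-deleted value, and the log2 fold change of -0.69 (SE 0.40) had an adjusted p of 0.504 in edgeR. It was -0.31 without the first Yy1-deleted library. Of the 9 members, 1 was non-overlapping and higher and 2 were non-overlapping and lower, where 9.47% and 11.6% of all genes tested were so.

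The remaining 4 members had smaller fold changes. Adam10 averaged 795 ± 97.3 CPM in Yy1-deleted and 681 ± 93.5 CPM in floxed control libraries, and Adam17 averaged 423 ± 35.8 CPM in Yy1-deleted and 322 ± 61.0 CPM in floxed control libraries (SD, n = 3 each). Their log2 fold changes were 0.23 (SE 0.14) and 0.40 (SE 0.16). Adamts1 averaged 518 ± 80.4 CPM in Yy1-deleted and 643 ± 111 CPM in floxed control libraries, a fold change of -0.31 (SE 0.15), and Timp2 averaged 405 ± 44.1 CPM in Yy1-deleted and 368 ± 18.2 CPM in floxed control libraries, a fold change of 0.14 (SE 0.14). The adjusted p of these 4 genes in edgeR lay between 0.235 and 0.764, and each pair of groups overlapped. The median log2 fold change of the 9 members was -0.31, against -0.02 over all genes tested.

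**Figure D3:**
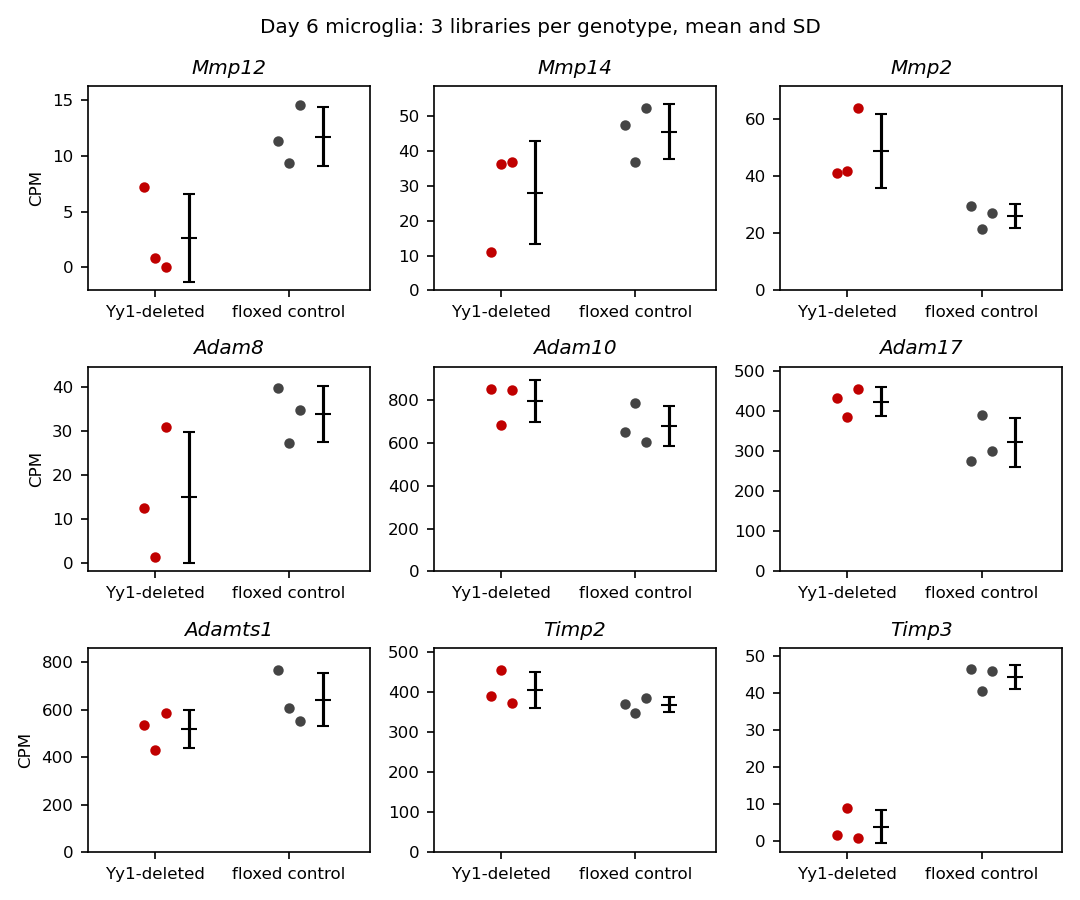
CPM of the 9 genes on day 6 in 3 Yy1-deleted and 3 floxed control libraries (points), with the mean and SD of each group beside them. Timp3 lies at 0.984 to 9.08 CPM in Yy1-deleted libraries, under all floxed control libraries at 40.5 to 46.5 CPM, and the groups also do not overlap for Mmp12 and Mmp2.

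Per kilobase, Adam10 had the highest level of the members in both genotypes, at 162 ± 19.8 CPM per kb in Yy1-deleted and 139 ± 19.0 in floxed control libraries. In floxed controls Adamts1 followed at 121 ± 21.0 CPM per kb, within the spread of Adam10, then Timp2 at 94.5 ± 4.68 and Adam17 at 44.9 ± 8.53. Mmp2 at 7.74 ± 1.26, Mmp14 at 7.64 ± 1.33 and Adam8 at 7.30 ± 1.37 could not be ordered, and Mmp12 was lowest at 1.62 ± 0.36 (SD, n = 3).

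Timp3 levels are set beside those of vascular and stromal markers in every library. The sorted cells had also been stained for CD31, an endothelial surface protein, and the labels do not say how that stain was used. The summed level of 13 markers of mural cells (pericytes and smooth muscle) and fibroblasts was 53.3 CPM in sham, 645 CPM on day 1, 1059.7 CPM on day 6, 1063 CPM on day 14 and 1.67 CPM on day 28. For 10 endothelial markers the sum was 249 CPM in sham and 366, 2823, 5924 and 30.9 CPM on days 1, 6, 14 and 28. On day 28, where Timp3 had 8 counts, 6 of the 13 mural and fibroblast markers were at 0.

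On day 14 the mural and fibroblast sum was 13.8 CPM in EGFP-positive cells, and all 13 markers were at 0 in EGFP-negative cells, where Timp3 was at 0 too. Endothelial markers summed to 558 CPM in EGFP-positive cells, against 30.7 CPM in EGFP-negative cells on that day, with 7 of 10, Cdh5 and Cldn5 among them, at 0 in EGFP-negative cells. In the Yy1 comparison the mural and fibroblast sum was 1.77 to 6.67 CPM in Yy1-deleted libraries, with 10 or 11 of the 13 markers at 0, against 27.5 to 96.9 CPM in floxed controls, with 1 to 4 at 0. Rgs5, Notch3 and Col1a1 were at 0 in all 3 Yy1-deleted libraries. In floxed controls Rgs5 had 0.67, 3.28 and 44.9 CPM, so much of the highest sum was 1 gene in 1 library. Acta2 had 5.79, 4.58 and 0 CPM in Yy1-deleted and 5.86, 11.4 and 4.88 CPM in floxed control libraries, which overlapped. None of the 6 mural and fibroblast markers tested passed the test. The endothelial sum was 429.8 to 552 CPM in Yy1-deleted and 580.4 to 857 CPM in floxed control libraries. The part of these cells in the Timp3 results was not tested.

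**Figure D4:**
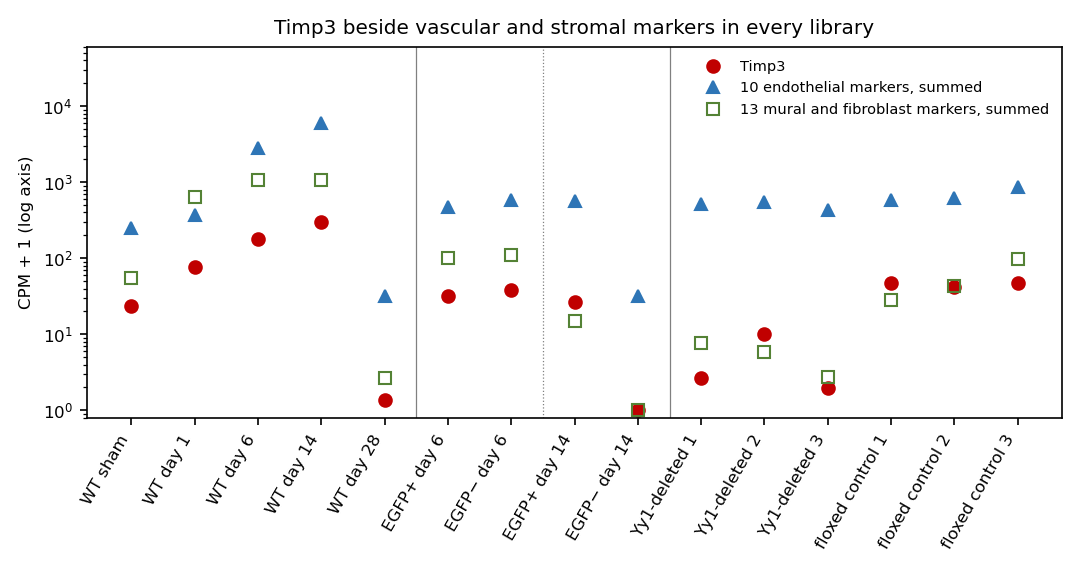
Timp3 (circles), the sum of 10 endothelial markers (triangles) and the sum of 13 mural and fibroblast markers (squares) in each of the 15 libraries, as CPM + 1 on a log axis, with lines between tables or reporter days. Timp3 and the mural and fibroblast sum are both near 0 on wild-type day 28, in EGFP-negative cells on day 14 and, for the sum, in the 3 Yy1-deleted libraries at up to 6.67 CPM.

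Other markers differed between the Yy1 genotypes as well. Microglial markers summed to between 19211 and 20803 CPM in Yy1-deleted and between 10646 and 11896 CPM in floxed control libraries, and all 11 rose in edgeR's test. Monocyte and macrophage markers other than Fn1 summed to between 56.1 and 81.3 CPM in Yy1-deleted and between 138 and 163 CPM in floxed control libraries. Of 6 border-associated macrophage markers tested, F13a1 and Stab1 were lower, with log2 fold changes of -2.16 and -0.71 (adjusted p 0.00296 and 0.0153 in edgeR). Of 13 genes induced by tissue dissociation, 4 were higher in edgeR's test and 0 lower. Over all genes tested, 1.55% were called higher and 1.05% lower. Among the other proteolysis lists, none of 10 other MMP genes, 4 other ADAM genes or 6 partner genes of ADAM10 and ADAM17 passed the test. Of 17 substrate genes, Trem2 and Csf1r, receptor genes of microglia, rose by 0.68 and 0.40 on the log2 scale (adjusted p 0.0184 and 0.0181 in edgeR), and Cd44 fell by 1.84 (adjusted p 0.0028 in edgeR).

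Cd44 was the last of the 5 genes most like Adam8 over 6 libraries, the day 6 reporter pair among them. It had 21.5, 20.2 and 13.2 CPM in Yy1-deleted and 57.0, 76.6 and 63.2 CPM in floxed control libraries. Of 6 genes of plasminogen activation, Serpine2 rose by 0.95 (adjusted p 0.00122 in edgeR). Of 11 cathepsin and cystatin genes, Cst3, the gene of the secreted inhibitor cystatin C, rose by 1.29 and the lysosomal protease gene Ctsd by 0.42 (adjusted p 6.25e-06 and 0.0132 in edgeR). Of 5 other ADAMTS genes tested, Adamts16 rose by 1.83 (adjusted p 0.0253 in edgeR). The part of the differing marker levels in these changes was not tested.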

How the data were processed

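Bulk RNA from sorted mouse microglia was sequenced in 15 libraries prepared with an Ovation SoLo kit. Tools named in the submitters' processing notes are featureCounts, STAR and edgeR, and builds GRCm38 and mm10; versions, annotation and strand setting are not given in the sources used here. The authors deposited 2 tables of whole counts per gene and, for the Yy1 libraries, a table of fractional values which were taken to be expected counts and were rounded before testing. Total counts (M, 1e6) were 16.8 to 52.6 M in the time course and day 6 reporter table, 23.1 to 24.6 M in the day 14 reporter table and 10.5 to 13.9 M in the Yy1 table. Groups came from sample titles, and 0 columns were left unused. Rn45s, a ribosomal RNA row, took 3.94% to 16.6% of counts where it led, and 27 rows have date-like names.

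In the whole-count tables, 68.7% to 90.9% of low counts (1 to 20) were even numbers, so counting intervals there are too narrow and no fold is given against 0. CPM used TMM factors of each table. Yy1 genotypes were compared with edgeR 4.0.16 (R 4.3.3; filterByExpr, TMM, two-sided quasi-likelihood F-test, no block, Benjamini-Hochberg threshold 0.05). The labels name these biological replicates without giving cultures or litters, so p-values measure the spread between these 6 libraries. Unreplicated pairs were compared as log2 ratios with a pseudocount of 1 CPM, which understates changes of low genes. The edgeR step was tested on simulated data. All members were named, with up to 4 called genes per list and comparison, and 5 genes most like Mmp12 and Adam8, apart from 1 list gene that is not reported here. Members and lists were chosen with earlier results of these data known. Alternatives were other scalings, filters, pseudocounts, minimum levels, tools, a replicate block and leaving out each library.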

Additional observations from a re-analysis of the deposited data

Results flagged for a closer look

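In 4 genes the EGFP-positive over EGFP-negative log2 ratios had opposite signs on day 6 and day 14. The ratio of Timp2 was 1.58 on day 6 and -1.54 on day 14. That of Timp3 was -0.25 on day 6 and 4.73 on day 14, where no Timp3 count was found in EGFP-negative cells. Adamts1 gave -1.40 on day 6 and 0.27 on day 14, and Adam10 gave 0.31 and -0.10. The difference between days was not tested, because each state had 1 library per day, and day cannot be told apart from the table and the sequencer.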

How the results depend on the processing

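Timp3 was called in 13 of 14 alternatives of the Yy1 comparison (log2 fold change -5.05 to -3.03, adjusted p in edgeR, DESeq2 or limma-voom 1.68e-09 to 0.0869), and the other 8 members in none, with their signs kept in all 14. Adjusted p ran from 0.0885 to 0.809 for Mmp12 and from 0.0555 to 0.874 for Adam8. Leaving out 1 library each gave 0 to 1 members called lower, 0 without the first floxed control library, where Timp3 was lost. Genes called higher (192) numbered 127 with total count scaling, 380 with DESeq2, 289 with limma-voom, 309 without a filter on low counts, and 58 to 166 with 1 library left out. Genes called lower (130) numbered 327 with DESeq2, 266 without the filter, and 39 to 151 with 1 library left out. The lowest counts, 58 and 39, came without the first floxed control library, and 98 and 67 came without the second. Without the third, 78 were lower. Same-numbered libraries did not deviate together (correlations -0.00765, -0.0479 and -0.0154). With a block for the replicate number, 219 genes were called higher and 194 lower, and Timp3 gave -4.09 (adjusted p 9.24e-06 in edgeR).

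With a minimum of 50 CPM, 1 member was higher on day 6 and 0 higher and 0 lower on day 28, each against sham, 0 were lower on day 14 against day 6, 0 higher on day 28 against day 14, and 2 higher in EGFP-positive cells on day 14. Without a minimum, 2 were lower on day 14 against day 6, and on day 6 EGFP-positive cells had 2 lower. A pseudocount of 5 CPM left 0 lower on day 14 against day 6. Genes of the whole table called higher and lower depended on the minimum level. With 50 CPM, the more frequent direction turned on day 28 against sham, on day 14 against day 6 and between reporter states on day 14. With none, it turned on day 14 against sham. With 50 CPM and with none, called genes numbered 203 and 828 higher on day 1 against sham (403 with 20 CPM) and 215 and 952 on day 6 (443). They numbered 550 and 1679 higher on day 14 (1008) and 465 and 994 on day 28 (845), each against sham. Lower genes numbered 183 and 1820 on day 14 (534) and 352 and 3536 on day 28 (1158), each against sham. On day 6 against day 1 they numbered 78 and 267 higher (163) and 69 and 205 lower (116), on day 14 against day 6 142 and 679 higher (345) and 77 and 1821 lower (366), and on day 28 against day 14 658 and 1541 higher (1203) and 790 and 3758 lower (1865). In EGFP-positive cells they numbered 325 and 1499 higher and 486 and 2590 lower on day 6 (546 and 862), and 327 and 2518 higher and 338 and 1546 lower on day 14 (795 and 772). A pseudocount of 5 CPM left 95 lower on day 1 (144) and 3 on day 6 (6), against sham. The log2 ratio of Mmp14 on day 14 against day 6 was -0.09, and 0.04 with RLE scaling. Scaling by RLE shifted the median log2 ratio by 0.17 on day 14 and 0.12 on day 28 against sham and by 0.13 on day 14 against day 6, and scaling by total count by 0.11 on day 14 against sham, -0.12 on day 28 against day 14 and -0.10 between reporter states on day 14. Low counts limit the precision of Mmp12 on day 14 and Timp3 on day 28, which rest on 2 and 8 counts.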
